A study of Mus musculus with 30 samples.

Results

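Keratins 7, 8, 18, 19 and 42 were followed in mouse embryonic stem cells whose Nanog, a transcription factor that holds these cells in the undifferentiated state, depended on doxycycline. Krt7, Krt8, Krt18 and Krt19 are the keratins of simple, single-layered epithelia, and Krt42 is a further type I keratin. Each of the 5 was taken as the transcript cluster (the probes that together read 1 transcription unit) that the platform table names with that symbol alone. Each symbol had 1 such cluster, and the 5 were chosen from 28815 clusters in the value table, of which 23385 carried a gene symbol and were tested. The clusters are 10427052 for Krt7, 10432918 for Krt8, 10427075 for Krt18, 10391036 for Krt19 and 10391075 for Krt42.

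Total RNA was read on 30 Affymetrix Mouse Gene 1.0 ST arrays in 10 groups of 3. All groups came from 1 clone, named NgR or AINV15_Nanog_Rescue in the labels, which expresses the doxycycline-responsive activator rtTA and was grown over primary mouse embryonic fibroblasts with 1 ug/ml doxycycline before withdrawal. On days 1, 3 and 5 after doxycycline was removed, cells were taken at once (withdrawal arrays), or after 12 more hours in which doxycycline was given back (pulsed arrays) or was not (control arrays). Cells harvested on day 0 still had doxycycline. No cells kept in doxycycline to days 1, 3 or 5 were analysed here, so removal of doxycycline and days in culture cannot be told apart. Nor were cells whose Nanog does not depend on doxycycline, so a pulse of the drug and a pulse of Nanog cannot be told apart. The labels do not say that the 3 arrays of a group came from separate cultures, so the tests measure the spread between these arrays, which may be technical.

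Keratins form intermediate filaments from pairs of a type I and a type II chain, so neither type builds a filament alone. Krt8 and Krt7 are type II chains, and Krt18, Krt19 and Krt42 are type I chains. Krt8 and Krt18 are the first keratins of the mouse embryo, where they fill the cells of the trophectoderm, the outer epithelium of the blastocyst, and later the primitive endoderm derivatives and other simple epithelia. Krt7 and Krt19 accompany them in trophoblast and in many ducts and glands. Krt19 is unusual in lacking most of the tail domain. Krt42 was described in mouse nail, and its human counterpart is a pseudogene. Filaments of simple epithelia are anchored to desmosomes through desmoplakin and to hemidesmosomes through plectin.

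The start sites of the genes show how differently these keratins are arranged. RefSeq promoter sequences (build GRCm38.p6, 250 bases before to 50 after the start) were held for 4 of the 5 members, Krt7, Krt8, Krt18 and Krt42, and are printed because these genes moved together or in opposition in the arrays. Each runs 5′ to 3′ on its own strand, and capitals mark matches to the motifs that were searched on both strands. Krt7 (chr15:101412153-101412452, + strand), Krt8 (chr15:102004293-102004592, − strand) and Krt18 (chr15:102027966-102028265, + strand) lie on chromosome 15, and Krt42 (chr11:100269902-100270201, − strand) lies on chromosome 11.
Krt7: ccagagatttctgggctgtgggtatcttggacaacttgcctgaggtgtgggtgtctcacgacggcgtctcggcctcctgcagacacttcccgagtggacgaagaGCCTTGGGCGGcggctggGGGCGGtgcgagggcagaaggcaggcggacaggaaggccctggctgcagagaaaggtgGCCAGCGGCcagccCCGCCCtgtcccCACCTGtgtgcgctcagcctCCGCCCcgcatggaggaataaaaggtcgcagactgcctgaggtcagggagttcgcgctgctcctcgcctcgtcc
Krt8: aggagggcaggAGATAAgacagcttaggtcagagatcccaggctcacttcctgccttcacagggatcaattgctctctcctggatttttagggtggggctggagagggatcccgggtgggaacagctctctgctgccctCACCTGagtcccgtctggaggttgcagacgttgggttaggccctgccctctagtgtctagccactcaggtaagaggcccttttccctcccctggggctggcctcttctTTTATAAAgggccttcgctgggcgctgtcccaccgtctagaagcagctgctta
Krt18: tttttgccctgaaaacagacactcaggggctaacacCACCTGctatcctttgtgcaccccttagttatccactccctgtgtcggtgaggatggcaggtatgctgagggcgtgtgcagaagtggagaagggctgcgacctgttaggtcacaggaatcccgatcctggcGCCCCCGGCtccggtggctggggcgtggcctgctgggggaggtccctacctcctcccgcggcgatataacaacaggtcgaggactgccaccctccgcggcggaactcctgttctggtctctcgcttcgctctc
Krt42: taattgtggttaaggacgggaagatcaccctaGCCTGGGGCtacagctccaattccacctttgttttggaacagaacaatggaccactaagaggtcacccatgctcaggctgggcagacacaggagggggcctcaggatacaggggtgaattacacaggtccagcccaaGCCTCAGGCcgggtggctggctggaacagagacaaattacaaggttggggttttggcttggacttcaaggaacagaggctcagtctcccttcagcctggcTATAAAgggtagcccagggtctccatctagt
The E-box letters CACCTG stood in the Krt7, Krt8 and Krt18 promoters and not in that of Krt42, and they occur in 20.2% of the 32851 promoters of the table. The GC-box letters GGGCGG occurred 4 times in the Krt7 promoter and in none of the other 3, against 35.7% of all promoters. The TATA-box letters TATAAA were present in the Krt8 promoter, as 2 overlapping matches on opposite strands, and once in the Krt42 promoter (13.6% of all promoters). Counted from the annotated start site, the first bases of these matches lay at -3 and -1 in Krt8 and at 20 in Krt42. The AP-2 letters GCCNNNGGC matched 2 times in Krt7, once in Krt18 and 2 times in Krt42 (16.6% of all promoters), and 1 of the Krt7 matches overlapped a GC box. The GATA letters AGATAA matched once, in Krt8 (11.2% of all promoters). No match was found for the AP-1 letters TGANTCA (7.81%) or the TEAD letters GGAATG (14.7%). The G+C content was 66.3% for Krt7, 61.3% for Krt18, 58% for Krt8 and 54% for Krt42, against a median of 52.7% over the table. A match of letters is a description of these windows and was not set against binding data.

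Values are the deposited log2 signals, in which 1 unit is a doubling, and a change is a difference of group means with its standard error from limma, fitted over all 30 arrays with 3 arrays in each group. A change is called when its Benjamini-Hochberg adjusted p over the 23385 clusters is under 0.05. The background shares of clusters are at this adjusted p. Shares at the unadjusted p were not counted, so member counts at the unadjusted p have no background beside them. Nanog was higher with doxycycline than without it. Its signal was 11.04, 11.05 and 11.01 on day 0, then 10.32, 10.23 and 10.17 on day 1 of withdrawal, 10.48, 10.48 and 10.57 on day 3 and 10.06, 9.86 and 9.64 on day 5. All withdrawal arrays lay below day 0, and those of day 3 lay above those of day 1 and above every control array. After the pulse it read 11.10, 11.11 and 11.06 on day 1, 10.89, 11.02 and 10.99 on day 3 and 11.001, 10.83 and 10.70 on day 5. The control arrays of the same days lay between 10.04 and 10.36, so pulsed and control Nanog did not overlap on any day. Array medians lay between 7.51 and 7.61, and the interquartile range of the arrays between 2.39 and 2.94. The 4 arrays with the widest range were all controls, namely replicates 2 and 3 of day 5, replicate 2 of day 3 and replicate 3 of day 1. The deposited values hold no detection calls. In these bulk samples, more cells expressing a keratin and more keratin RNA per cell cannot be told apart.

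Withdrawal of doxycycline was followed by a large, sustained rise of Krt7, Krt8, Krt18 and Krt19 and by a fall of Krt42. By day 5 the 4 had risen by 2.11 to 3.39 on the log2 scale over day 0, that is 4.33-fold to 10.5-fold, and Krt42 had fallen by 1.42, a 2.67-fold lower signal. On day 1, 2 of the 5 members were called higher, Krt7 and Krt42, and none lower by limma, at the unadjusted p under 0.05 too (2 higher, 0 lower). The background of the same comparison was 3.49% of clusters called higher and 3.02% called lower. On day 3 and again on day 5 the test called 4 members higher and 1 lower. The background on day 3 was 19.6% of clusters higher and 14.3% lower, and on day 5 it was 23.8% and 18.8%. The median change over all tested clusters was 0.02 on day 1, 0.02 on day 3 and -0.01 on day 5.

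Krt7, a type II keratin of glandular and trophoblast epithelia, changed most. Its signal was 7.75, 7.67 and 7.73 on day 0, 7.92, 7.93 and 7.96 on day 1, 9.55, 9.72 and 9.59 on day 3 and 11.06, 11.07 and 11.19 on day 5 of withdrawal. None of these 4 groups overlapped. Krt7 was higher than on day 0 by 0.22 ± 0.063 on day 1 (adjusted p = 0.0357), by 1.90 ± 0.063 on day 3 (adjusted p = 4.45e-18) and by 3.39 ± 0.063 on day 5 (adjusted p = 6.34e-24). The day 1 difference missed the threshold when any 1 of its 6 arrays was left out (adjusted p of 0.0629 to 0.127). The day 5 rise ranked 3 among all 23385 tested clusters.

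Krt8, the type II partner of Krt18, read 10.14, 10.03 and 10.08 on day 0, 9.94, 10.09 and 10.03 on day 1, 11.27, 11.14 and 11.11 on day 3 and 12.36, 12.27 and 11.95 on day 5. The day 1 arrays overlapped those of day 0 (difference -0.06 ± 0.09, limma adjusted p = 0.814). Days 3 and 5 were each above every earlier array, by 1.09 ± 0.09 (adjusted p = 4.26e-10) and 2.11 ± 0.09 (adjusted p = 4.21e-16) over day 0.

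Krt18, the type I partner of Krt8, moved on the same days. Its signal was 9.42, 9.37 and 9.30 on day 0, 9.21, 9.28 and 9.21 on day 1, 11.10, 10.93 and 10.98 on day 3 and 12.36, 12.17 and 12.24 on day 5. All 3 day 1 arrays lay just below day 0, a difference of -0.13 ± 0.075 that did not pass the test (limma adjusted p = 0.409). Krt18 then rose, by 1.64 ± 0.075 over day 0 on day 3 (adjusted p = 6.71e-15) and by 2.89 ± 0.075 on day 5 (adjusted p = 1.01e-20), the rise of rank 6 among all clusters.

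Krt19, a type I keratin of ducts and trophoblast that can also pair with Krt8, read 8.39, 8.40 and 8.05 on day 0, 8.25, 8.48 and 8.37 on day 1, 9.46, 9.42 and 9.12 on day 3 and 10.63, 10.74 and 10.96 on day 5. Day 1 overlapped day 0 (difference 0.09 ± 0.107, limma adjusted p = 0.772). It rose by 1.06 ± 0.107 on day 3 (adjusted p = 1.78e-08) and by 2.50 ± 0.107 on day 5 (adjusted p = 5.14e-16). The ranks of the day 5 rise were 15 for Krt19 and 29 for Krt8.

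Krt42 ran the other way, after an early rise. Its signal was 9.41, 9.57 and 9.40 on day 0, 10.09, 9.99 and 10.12 on day 1, 8.70, 8.76 and 8.77 on day 3 and 8.10, 8.10 and 7.92 on day 5. The day 1 arrays were the highest and the day 5 arrays the lowest of these, with no overlap between the 4 groups. Against day 0 it was higher by 0.61 ± 0.09 on day 1 (limma adjusted p = 5.62e-05), lower on day 3 (-0.71 ± 0.09, adjusted p = 5.77e-07) and lower again on day 5 (-1.42 ± 0.09, adjusted p = 1.1e-12). Its day 5 fall ranked 84 among all clusters.

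The steps between successive days showed that the change had not levelled off by day 5. On day 3 against day 1 of withdrawal, Krt18 rose by 1.77, Krt7 by 1.68, Krt8 by 1.15 and Krt19 by 0.97, while Krt42 fell by 1.32 (limma adjusted p of at most 2.13e-07). On day 5 against day 3, Krt7 rose by a further 1.49, Krt19 by 1.44, Krt18 by 1.25 and Krt8 by 1.02, and Krt42 fell by 0.70 (adjusted p of at most 3.86e-06). The background was 13.2% of clusters higher and 9.77% lower in the first step, and 7.59% higher and 4.75% lower in the second. On the withdrawal arrays, then, Krt19 was the one of these 5 genes whose later step was the larger of its pair. In the control arm the later step was the larger for Krt7 and Krt42 and not for Krt19. In the pulsed arm it was the larger for Krt7, Krt19 and Krt42. These are values, with no test of the difference between steps.

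**Figure D1:**
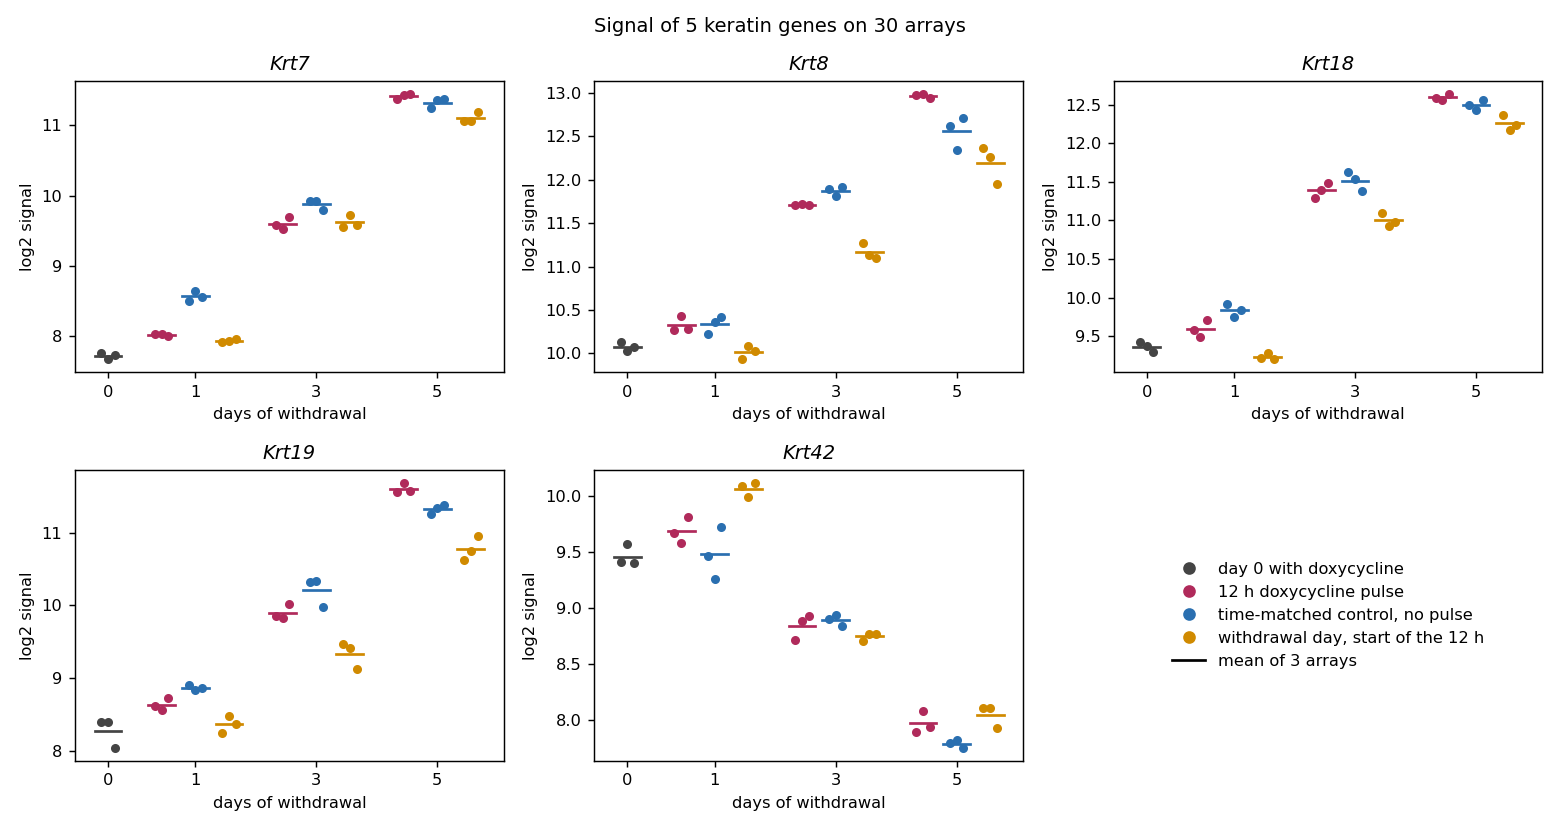
Log2 signal of Krt7, Krt8, Krt18, Krt19 and Krt42 on each of the 30 arrays, with day 0 at the left and then, for days 1, 3 and 5, the pulsed, control and withdrawal groups; points are arrays and bars are means of 3. Krt7, Krt8, Krt18 and Krt19 climb between days 1 and 5 in every arm, and Krt42 is highest on day 1 of withdrawal and lowest on day 5.

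The panels of signal by array show that the direction of both steps was the same in all arms. Their sizes differed as values, and the differences between days tested below were called for some members only. Krt42 in day 1 controls overlapped day 0, so its early rise was seen at withdrawal and not in that group. In the control arm, day 3 against day 1 gave a rise of 1.68 for Krt18, 1.54 for Krt8, 1.34 for Krt19 and 1.31 for Krt7, and a fall of 0.59 for Krt42 (limma adjusted p of at most 6.91e-05). Day 5 against day 3 in that arm gave a rise of 1.45 for Krt7, 1.12 for Krt19, 0.98 for Krt18 and 0.68 for Krt8, and a fall of 1.11 for Krt42 (adjusted p of at most 3.77e-06). In the pulsed arm the first step was 1.80 for Krt18, 1.58 for Krt7, 1.38 for Krt8 and 1.26 for Krt19, with -0.85 for Krt42. The second step of the pulsed arm was 1.82 for Krt7, 1.71 for Krt19, 1.26 for Krt8 and 1.20 for Krt18, with -0.87 for Krt42, all called (adjusted p of at most 2.82e-07 over both steps). The background shares were 5.6% higher and 4.42% lower for the first control step, 8.98% and 7.42% for the second, 6.51% and 5.43% for the first pulsed step and 8.99% and 8.53% for the second.

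Ordered by mean signal over the 10 groups, Krt7 climbed from day 0 through the withdrawal, pulsed and control groups of day 1, then the pulsed, withdrawal and control groups of day 3, to the withdrawal, control and pulsed groups of day 5. Its means spanned 3.70, and 2 of the 9 neighbouring pairs of groups overlapped. Those pairs were pulsed with withdrawal on day 3 and pulsed with control on day 5. Krt8 spanned 2.95, from day 1 of withdrawal to the day 5 pulse, and 3 of its 9 neighbouring pairs overlapped: withdrawal on day 1 with day 0, pulsed with control on day 1, and control with withdrawal on day 5.

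Krt18 spanned 3.36 between the same extremes as Krt8, and 1 neighbouring pair overlapped, pulsed with control on day 3. Krt19 spanned 3.33 from day 0 to the day 5 pulse, and 2 pairs overlapped, withdrawal on day 1 with day 0 and pulsed with control on day 3. For Krt8, Krt18 and Krt19 the order within day 3 was withdrawal, pulsed, control, and within day 5 it was withdrawal, control, pulsed. Krt42 spanned 2.28, from the day 5 control group up to day 1 of withdrawal, and 5 of its 9 neighbouring pairs overlapped. The 3 groups of day 3 formed 1 run of overlapping neighbours for Krt42, as did day 0 with the control and pulsed groups of day 1.

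The 4 simple epithelial keratins also rose over a further 12 h without doxycycline, on day 1 and on day 3. On day 1, the control arrays against the withdrawal arrays taken 12 h earlier had 4 members called higher and 1 lower, where 5.02% of clusters were called higher and 1.23% lower. Krt7 read 8.49, 8.64 and 8.56 in day 1 controls, against 7.92, 7.93 and 7.96 at withdrawal, a rise of 0.63 ± 0.063 (limma adjusted p = 1.53e-06). Krt18 read 9.92, 9.75 and 9.84 in controls, against 9.21, 9.28 and 9.21 (0.60 ± 0.075, adjusted p = 5.3e-05). Krt19 rose by 0.50 ± 0.107 (adjusted p = 0.0066) and Krt8 by 0.32 ± 0.09 (adjusted p = 0.0333). The Krt8 call was lost without replicate 1 or 3 at withdrawal, or without replicate 2 or 3 of the controls. Krt42 fell to 9.46, 9.26 and 9.73 in day 1 controls, against 10.09, 9.99 and 10.12 at withdrawal (-0.58 ± 0.09, adjusted p = 0.000477).

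On day 3 the same 12 h raised 4 members and lowered none of the 5 in limma (0 lower at the unadjusted p under 0.05 as well), against 1.29% of clusters higher and 0.402% lower. Krt19 read 10.32, 10.34 and 9.97 in controls, against 9.46, 9.42 and 9.12 at withdrawal (0.88 ± 0.107, adjusted p = 1.73e-05). Krt8 read 11.89, 11.82 and 11.91 in controls, against 11.27, 11.14 and 11.11 (0.70 ± 0.09, adjusted p = 2.94e-05). Both were clear of the withdrawal arrays in every replicate. Krt18 rose by 0.51 ± 0.075 (adjusted p = 0.000202) and Krt7 by 0.26 ± 0.063 (adjusted p = 0.0281), and the Krt7 call was lost without replicate 1 or 3 at withdrawal or replicate 1 or 2 of the controls. Krt42 differed by 0.15 ± 0.09 (adjusted p = 0.564).

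On day 5, 3 members were called higher in controls than at withdrawal, and none lower (1 lower at the unadjusted p under 0.05), where 2.32% of clusters were called higher and 0.984% lower. Krt19 rose by 0.55 ± 0.107 (adjusted p = 0.00448), Krt8 by 0.36 ± 0.09 (adjusted p = 0.0227) and Krt7 by 0.22 ± 0.063 (adjusted p = 0.0491). The Krt8 call was lost without control replicate 3 or withdrawal replicate 3, and the Krt7 call was lost on leaving out any 1 of 22 arrays (adjusted p of up to 0.247). Krt18 differed by 0.24 ± 0.075 (adjusted p = 0.0778) and Krt42 by -0.26 ± 0.09 (adjusted p = 0.114). The control arrays of day 5 include 2 of the 4 arrays of widest spread, and without those 4 arrays no member was called higher.

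Of the 5 keratins, Krt7 was lower in pulsed than in control cells on day 1, and Krt8 was higher on day 5. Each pulsed group was set against control cells harvested at the same time. On day 1, Krt7 read 8.030, 8.025 and 8.001 in pulsed cells, against 8.49, 8.64 and 8.56 in controls, so the groups were well apart. The fall was 0.55 on the log2 scale (-0.55 ± 0.063, limma adjusted p = 1.68e-05), and it was the 1 call among the 5 members in that comparison, where 3.2% of clusters were called lower and 0.547% higher. At the unadjusted p under 0.05, 3 members were lower and 1 was higher, and the share of all clusters at that looser threshold was not counted.

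The other 4 did not pass the test on day 1. Krt18 read 9.59, 9.49 and 9.71 in pulsed cells, against 9.92, 9.75 and 9.84 in controls (-0.24 ± 0.075, limma adjusted p = 0.0741). Krt19 read 8.61, 8.56 and 8.73 in pulsed cells, against 8.91, 8.83 and 8.86 (-0.23 ± 0.107, adjusted p = 0.272). In both, each pulsed array lay below each control array. Krt8 read 10.27, 10.43 and 10.29 in pulsed cells, against 10.22, 10.36 and 10.42, a difference of -0.00 with an interval of limma from -0.19 to 0.18. Krt42 read 9.67, 9.58 and 9.82 in pulsed cells, against 9.46, 9.26 and 9.73 (0.21 ± 0.09, adjusted p = 0.24), and these groups overlapped.

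On day 3 no member was called between pulsed and control cells by limma, where 0.00428% of clusters were called higher and 0.0342% lower. At the unadjusted p under 0.05, 2 members were lower, with no share of all clusters counted at that looser threshold. Krt7 read 9.59, 9.53 and 9.69 in pulsed cells, against 9.93, 9.92 and 9.79 in controls, a non-overlapping difference of -0.28 ± 0.063 (adjusted p = 0.0988). Krt19 read 9.86, 9.82 and 10.02 in pulsed cells, against 10.32, 10.34 and 9.97 (-0.31 ± 0.107, adjusted p = 0.207), with overlap. Krt8 differed by -0.16 with an interval from -0.35 to 0.02, and all 3 pulsed arrays (11.71, 11.72 and 11.71) lay below the controls. Krt18 differed by -0.12 (interval -0.28 to 0.03) and Krt42 by -0.05 (interval -0.24 to 0.13).

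By day 5 the differences of the 4 simple epithelial keratins were positive, and Krt8 was the member called. Krt8 read 12.97, 12.99 and 12.94 in pulsed cells, against 12.62, 12.35 and 12.71 in controls (0.41 ± 0.09, limma adjusted p = 0.00603). The background was 5.13% of clusters higher and 7.1% lower. The Krt8 call rests on control replicate 2: without that array the difference was 0.304 (adjusted p = 0.07), and without the 4 arrays of widest spread it was 0.351 (adjusted p = 0.265). Krt19 read 11.56, 11.68 and 11.57 in pulsed cells, against 11.26, 11.34 and 11.38 (0.28 ± 0.107, adjusted p = 0.0778), with no overlap. Krt18 differed by 0.10 (interval -0.05 to 0.25) and Krt7 by 0.09 (interval -0.04 to 0.22). Krt42 read 7.89, 8.08 and 7.94 in pulsed cells, against 7.79, 7.82 and 7.75 (0.18 ± 0.09, adjusted p = 0.16), also with no overlap. No member was called lower (0 at the unadjusted p under 0.05).

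**Figure D2:**
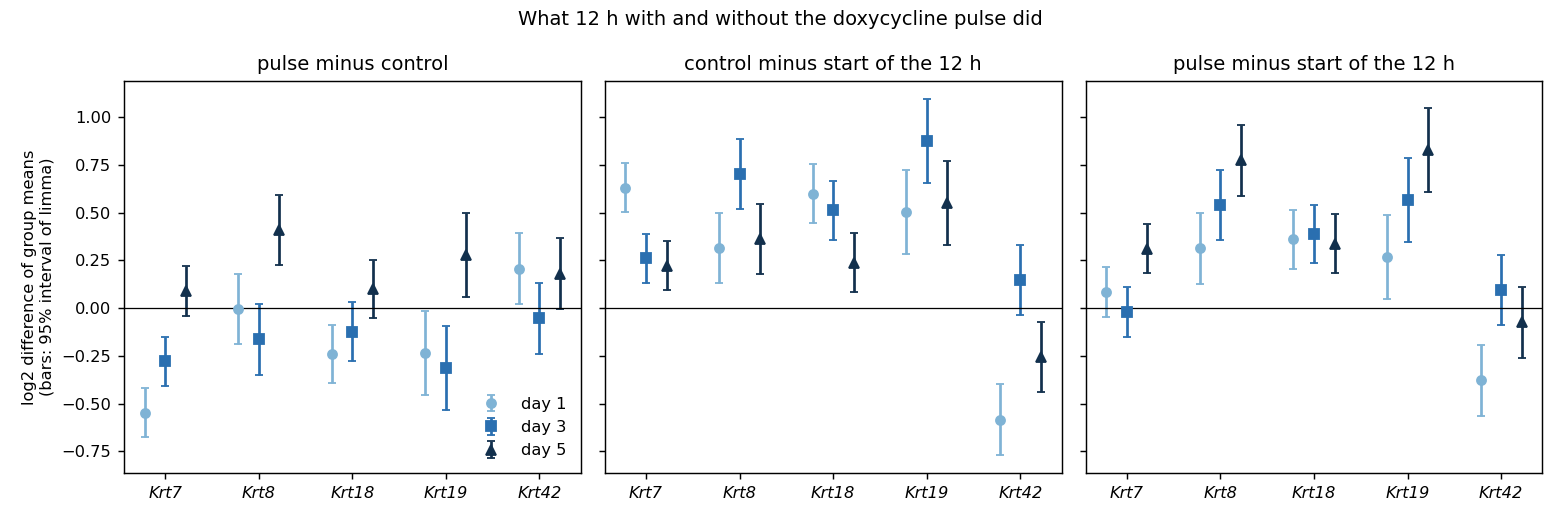
Change in log2 signal of the 5 keratins over the 12 h on days 1, 3 and 5, with panels for pulsed minus control, control minus the withdrawal arrays at the start of the 12 h, and pulsed minus those arrays; bars are limma's 95% intervals from 3 arrays a group. Krt7 on day 1 is the lowest point of the first panel at -0.55, and the Krt8 point of day 5 is the highest at 0.41.

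The plot of changes over the 12 h also shows whether the pulsed cells moved at all from where they started. Pulsed against withdrawal cells of day 1, Krt7 differed by 0.08 ± 0.063 (limma adjusted p = 0.804), while Krt18 was called higher (0.36 ± 0.075, adjusted p = 0.0168) and Krt42 lower (-0.38 ± 0.09, adjusted p = 0.044). In that comparison 0.321% of clusters were called higher and 0.351% lower. The Krt42 call was lost on leaving out any 1 of 17 arrays (adjusted p of up to 0.267) and the Krt18 call any 1 of 4 (up to 0.118). The Krt8 difference was 0.31 (adjusted p = 0.131) and that of Krt19 was 0.27 (adjusted p = 0.407). The controls of the same hours had 4 members higher, as given above, and both comparisons share the withdrawal arrays.

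On day 3, pulsed cells had 3 members called higher than at withdrawal and none lower (0 at the unadjusted p under 0.05), where 1.35% of clusters were called higher and 2.05% lower. Krt19 was higher by 0.56 ± 0.107 (limma adjusted p = 0.0025), Krt8 by 0.54 ± 0.09 (adjusted p = 0.000609) and Krt18 by 0.39 ± 0.075 (adjusted p = 0.00282). Krt7 again differed little from its start, by -0.02 ± 0.063 (adjusted p = 0.953), and its pulsed and withdrawal arrays overlapped. Krt42 differed by 0.09 (adjusted p = 0.733).

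On day 5, pulsed cells had 4 members called higher than at withdrawal, against 4.22% of clusters higher and 7.34% lower. Krt19 was higher by 0.83 ± 0.107 (limma adjusted p = 7.89e-06), Krt8 by 0.77 ± 0.09 (adjusted p = 1.74e-06), Krt18 by 0.34 ± 0.075 (adjusted p = 0.00324) and Krt7 by 0.31 ± 0.063 (adjusted p = 0.00146). Krt42 differed by -0.07 (adjusted p = 0.656). Nanog in the same pulsed cells lay between 10.70 and 11.001, against 9.64 to 10.06 at withdrawal.

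The pulse did not bring the keratins back to day 0 levels on days 3 or 5. Against day 0, pulsed cells of day 3 were higher by 2.03 for Krt18, 1.88 for Krt7, 1.63 for Krt8 and 1.62 for Krt19, and lower for Krt42 (-0.62), with limma adjusted p of at most 7.4e-06. Pulsed cells of day 5 were higher by 3.70 for Krt7, 3.33 for Krt19, 3.23 for Krt18 and 2.89 for Krt8, which are 13-fold, 10-fold, 9.38-fold and 7.39-fold, and lower for Krt42 by 2.81-fold (adjusted p of at most 4.19e-13). The background was 14.4% of clusters higher and 10.9% lower on day 3, and 21.4% and 17.8% on day 5. Already on day 1, 3 members were called higher in pulsed cells than on day 0, Krt19 (0.36, adjusted p = 0.0307), Krt7 (0.30, adjusted p = 0.00221) and Krt18 (0.23, adjusted p = 0.0436), where 6.23% of clusters were called higher and 4.99% lower. The Krt18 call was lost on leaving out any 1 of 8 arrays (up to 0.217) and the Krt19 call any 1 of 3 (up to 0.23). Krt8 differed by 0.25 (adjusted p = 0.0714) and Krt42 by 0.23 (adjusted p = 0.103).

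Whether the pulse acted differently on different days was tested as the difference between the pulsed minus control values. From day 1 to day 5 this difference was 0.64 ± 0.089 for Krt7 (limma adjusted p = 0.00156), the 1 member called, where 0.0599% of clusters were called higher and 0.0513% lower. From day 3 to day 5 it was 0.37 ± 0.089 for Krt7 (adjusted p = 0.0445) and 0.57 ± 0.127 for Krt8 (adjusted p = 0.0332), where 0.355% were called higher and 0.582% lower. Both calls from day 3 to day 5 were lost without the 4 arrays of widest spread (adjusted p = 0.108 for Krt7 and 0.109 for Krt8). The Krt7 call was also lost on leaving out any 1 of 19 arrays (up to 0.128), and the Krt8 call any 1 of 7 (up to 0.113). Krt19 missed the threshold there (0.59 ± 0.151, adjusted p = 0.0546), and so did Krt18 (0.22 ± 0.106, adjusted p = 0.295). Between days 1 and 3 no member was called by limma (1 higher at the unadjusted p under 0.05), where 0.00855% of clusters were called.

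The change over the 12 h without doxycycline also differed by day, in a comparison added after the values were seen. The control minus withdrawal step of Krt7 was smaller on day 3 than on day 1 (-0.37 ± 0.089, limma adjusted p = 0.0208) and smaller on day 5 than on day 1 (-0.41 ± 0.089, adjusted p = 0.00706). That of Krt18 was smaller on day 5 than on day 1 (-0.36 ± 0.106, adjusted p = 0.0405). Leaving out any 1 of 9 arrays lost this Krt18 call (up to 0.0979), and any 1 of 4 lost the Krt7 call of day 3 against day 1 (up to 0.0847). That of Krt42 was higher on day 3 than on day 1 by 0.73 ± 0.127 (adjusted p = 0.0017), having been negative on day 1. The share of clusters called was 1.24% higher and 1.63% lower for day 3 against day 1, and 2.77% and 3.02% for day 5 against day 1.

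Since keratins work as pairs of types, the change of Krt18 was compared with that of its partner Krt8 within each array. Krt7 was likewise set against Krt8, and Krt19 against Krt18, which are chains of the same type and not partners. Each value is the signal of 1 gene minus that of the other, relative to the mean of day 0. For Krt18 minus Krt8 this was 0.714, 0.618 and 1.004 on the 3 arrays of day 5 of withdrawal, against 0.004, 0.063 and -0.067 on day 0. The change of Krt18 exceeded that of Krt8 by 0.548 on day 3 and 0.779 on day 5 (two-sided exact permutation test, p = 0.1 each, the smallest that 3 against 3 arrays allow). The change of Krt7 exceeded that of its fellow type II chain Krt8 by 0.81 on day 3 and 1.275 on day 5 (exact p = 0.1 each). The change of Krt19 minus that of Krt18 was -0.584 on day 3 and -0.395 on day 5 (exact p = 0.1 each). In these pairs the groups did not overlap. A permutation of 3 against 3 arrays cannot give a p under 0.1, so this test could not have called a difference.

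**Figure D3:**
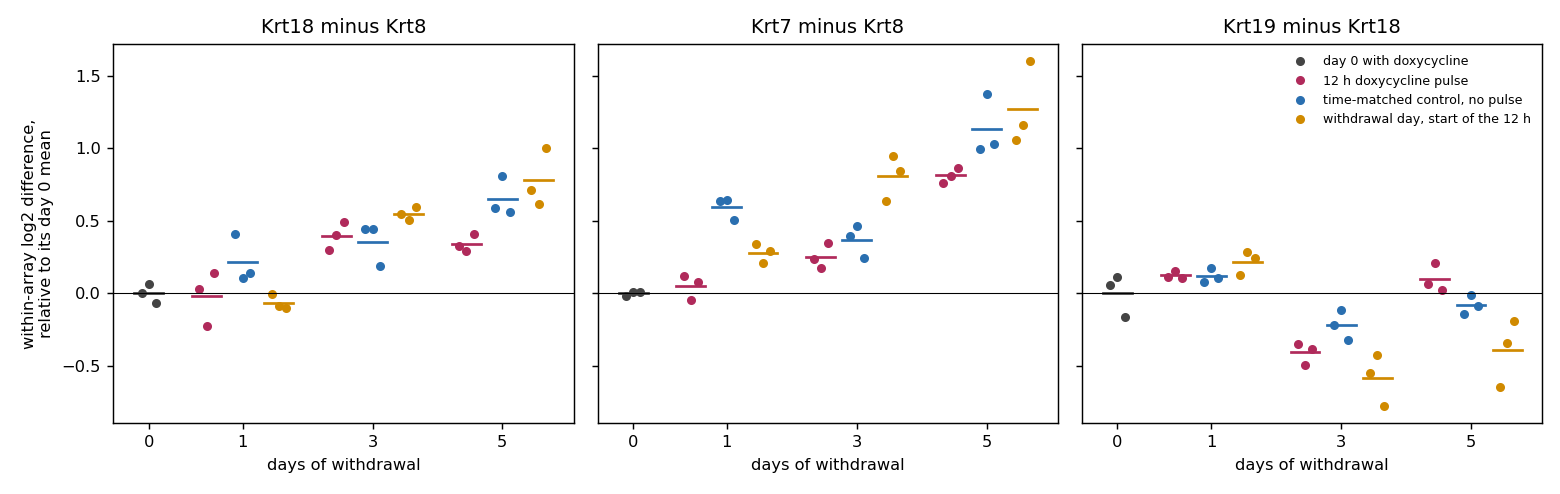
Within-array difference in log2 signal between members (Krt18 minus Krt8, Krt7 minus Krt8, Krt19 minus Krt18), relative to its mean on day 0, for each of the 30 arrays by group. The difference of Krt7 and Krt8 is highest on day 5 of withdrawal, where it is 1.275 above day 0.

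The plot of within-array differences also shows the arms. On day 5, the Krt18 minus Krt8 difference was lower in pulsed than in control cells (-0.309), and so was the Krt7 minus Krt8 difference (-0.319, exact permutation p = 0.1 each). On day 1 the Krt7 minus Krt8 difference was lower in pulsed than in control cells (-0.543, exact permutation p = 0.1), and that of Krt18 minus Krt8 was -0.236 (exact p = 0.3, with overlap). A difference within an array shows that the signals of 2 genes changed unequally and not which of them stayed the same. Whether the probes of the 2 clusters respond alike to RNA was not tested.

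Most of the keratin genes beside the 4 that rose were not called on day 5. Keratin genes lie in a type II cluster on mouse chromosome 15 and a type I cluster on chromosome 11, with Krt18 as the one type I gene at the end of the type II cluster. In the gene order of RefSeq, Krt7 lies between Krt80 and Krt87 near one end of the type II cluster, and Krt8 lies beside Krt18 at the other end, between Krt78 and Krt18. Of the 21 other type II keratins measured, the day 5 changes ran from -0.31 to 0.26 with a median of 0.07. A single gene of these was called, the hair keratin Krt82 (0.26 ± 0.0978, limma adjusted p = 0.0341), against 3 members of the same stretch that had risen by 2.11 to 3.39.

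In the type I cluster, 25 other keratins were measured, and their day 5 changes ran from -0.85 to 1.02 with a median of -0.14. The test called 1 higher and 5 lower, against 23.8% and 18.8% of all clusters, so the share lower was near the background. With the interquartile range as covariate 5 were higher and 4 lower, and with arrays centred on their median 1 and 8. Krt20, a keratin of intestinal and urinary epithelia, rose by 1.02 ± 0.101 (limma adjusted p = 4.58e-09). Krt17, a keratin of skin appendages that lies next to Krt42, fell (-0.85 ± 0.106, adjusted p = 2.22e-07), as did Krt10, the keratin of differentiating epidermis (-0.42), Krt28 (-0.34), Krt222 (-0.34) and Krt34 (-0.33). Krt19 lies between Krt15 and Krt9, neither of which was called on day 5.

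Krt42 and its neighbour Krt17 followed the same course. Krt17 was higher than on day 0 by 0.47 ± 0.106 on day 1 (limma adjusted p = 0.00562), lower on day 3 (-0.48, adjusted p = 0.000762) and lower on day 5 (-0.85), which is the order of signs of Krt42. Over the 10 group means the Pearson correlation of Krt42 and Krt17 was 0.983, given as a description. Both are closely related type I chains, and whether their probes read each other's transcript was not tested. RefSeq also lists 1 pseudogene named for a member, Krt8-ps, and whether the Krt8 cluster reads it was not tested.

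**Figure D4:**
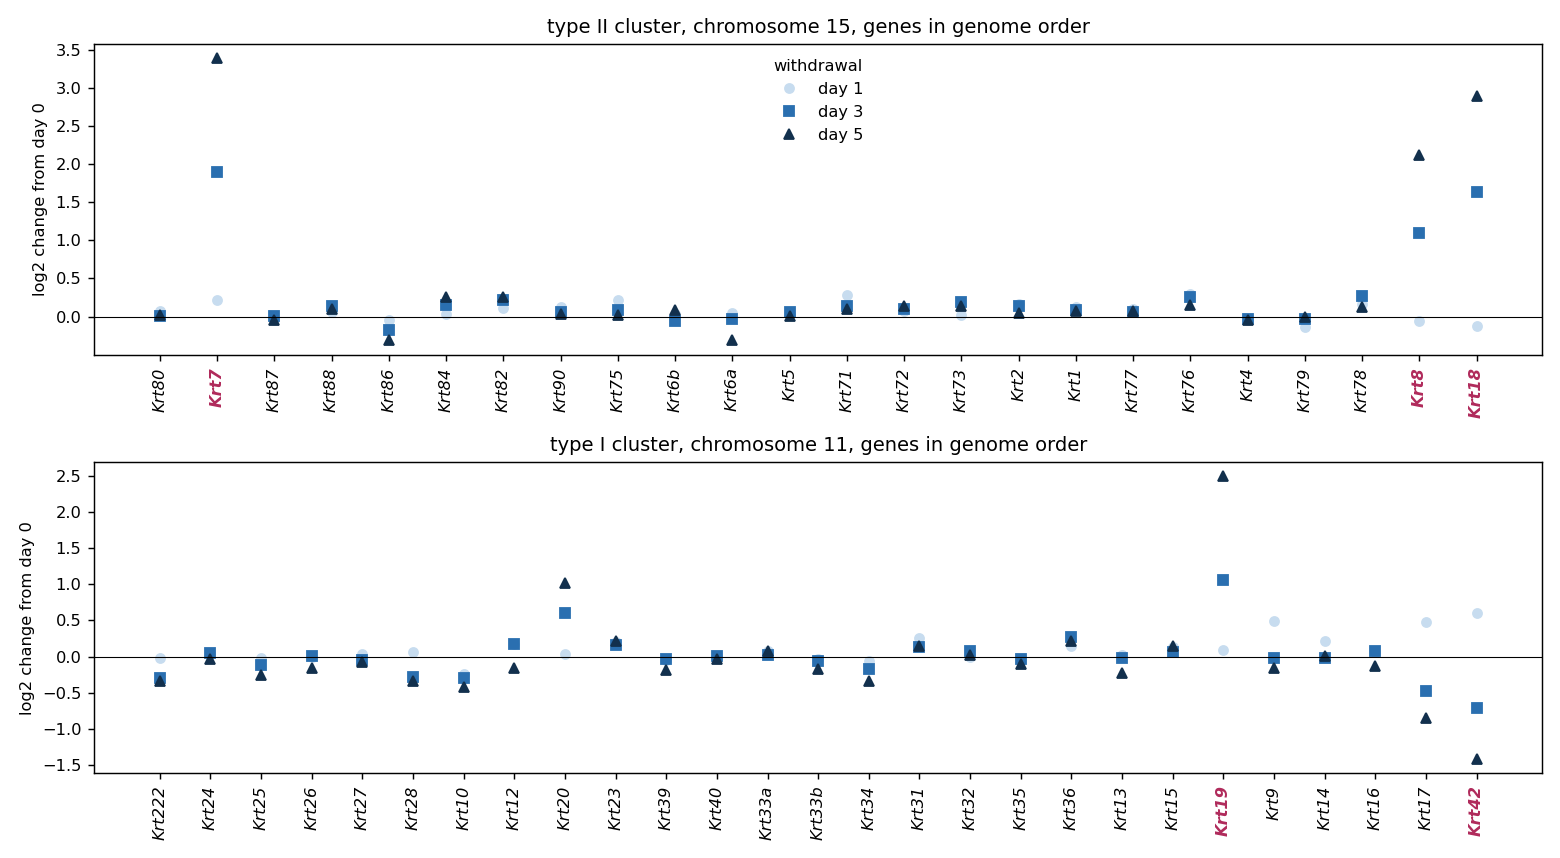
Change in log2 signal against day 0 on days 1, 3 and 5 of withdrawal for each measured keratin gene in genome order, with the type II cluster of chromosome 15 and the type I cluster of chromosome 11; the 5 members are named in bold red. Krt7, the second gene after Krt80, and Krt8 with Krt18 at the other end stand 2.11 or more above 0 on day 5, and the other genes of that cluster lie within -0.31 to 0.26.

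The plot of keratins in genome order shows the rise in the chromosome 15 cluster at Krt7, Krt8 and Krt18, and not at the outermost gene Krt80 (0.02, adjusted p = 0.875), and in the chromosome 11 cluster at Krt19 and Krt20. Between pulsed and control cells of day 5, 5 of the 25 other type I genes were called higher and 1 lower, and 4 of the 21 type II genes higher, against 5.13% and 7.1% of all clusters. The numbers called higher came to 1 and 0 with the array's interquartile range as a covariate, and to 0 and 0 without the 4 arrays of widest spread.

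Outside the keratins, the genes whose group means were most like those of the members were of mixed kinds. The growth factor gene Igf2 was among the 4 most like Krt7, Krt8 and Krt19. The protease gene Prss8 was among those of Krt8 and Krt19, and 2 desmosomal genes were among those of Krt7. Likeness was the Pearson correlation over the 10 group means, a description with no test. It was taken among the 1293 clusters with 1 symbol whose means spanned at least 1 on the log2 scale, keratin genes left out. Krt17, at 0.983 with Krt42, could therefore not be named, nor could 1 member for another. For Krt7 the 4 most alike were Dsc2 (0.9976), a desmosomal cadherin, Igf2 (0.9955), an imprinted growth factor, Dsp (0.9948), which is desmoplakin, and Hspb8 (0.9947), a small heat shock protein. For Krt8 they were Rnf128 (0.9936), a ubiquitin ligase, Prss8 (0.9827), a membrane-anchored serine protease of epithelia, Mir669b (0.9824) and Igf2 (0.9821).

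For Krt18 the most alike were Wls (0.9937), needed for Wnt secretion, Tnnc1 (0.9927), a troponin, Anxa3 (0.9903), an annexin, and Csrp1 (0.9901), a LIM protein. For Krt19 they were Prss8 (0.9948), the imprinted gene Peg3 (0.9941), Igf2 (0.9941) and Morc4 (0.9922). For Krt42 they were Gm10522 (0.9899), Bmerb1 (0.9857), Clvs2 (0.9822) and Zfp819 (0.9791). Among the 4 rising keratins the pairwise correlations lay between 0.9753 (Krt7 with Krt8) and 0.9904 (Krt8 with Krt18), and with Krt42 between -0.9683 and -0.9435. The 10 points share the course of withdrawal, along which 42.5% of clusters were called by day 5.

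Desmosomal and plakin genes, which anchor keratin filaments, rose in part. Of 20 measured, 8 were called higher and 1 lower on day 3, and 10 higher and 1 lower on day 5. The background was 19.6% of clusters higher and 14.3% lower on day 3, and 23.8% and 18.8% on day 5. The median change on day 5 was 0.28, against -0.01 over all clusters. Dsc2 had a difference of 0.03 on day 1 that was not called, and was higher by 1.12 on day 3 and 1.98 ± 0.12 on day 5 (limma adjusted p = 4.97e-13). Dsp had a difference of -0.10 on day 1, and rose by 0.64 on day 3 and 1.47 ± 0.0885 on day 5 (adjusted p = 4.22e-13). Dsg2, the desmoglein of simple epithelia, was higher by 0.81 on day 5, and Pkp4, an armadillo protein of junctions, was lower (-0.84). Of the 4 hemidesmosome genes, the integrin partner Cd151 (0.89) and the integrin subunit Itga6 (0.73) rose by day 5, and Itgb4 (-0.07) and Col17a1 (0.00) were not called.

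Of the epithelial junction and membrane genes, 1 of 20 was called higher and 3 lower on day 1, and 16 higher and 1 lower on day 3. The background was 3.49% of clusters higher and 3.02% lower on day 1, and 19.6% and 14.3% on day 3. On day 5, 18 of 20 measured were called higher and none lower (0 lower at the unadjusted p under 0.05), with a median of 0.84. The background on that day was 23.8% of clusters higher and 18.8% lower. Prss8 rose by 1.63 ± 0.0882 (limma adjusted p = 5.4e-14), and the tight junction proteins Cldn7 by 1.49 ± 0.106, Cldn6 by 1.41 ± 0.0762 and Marveld2 by 1.01 ± 0.114. In pulsed against control cells of day 1, 5 of the 20 were called lower and none higher (1 higher at the unadjusted p under 0.05). In that comparison 3.2% of clusters were called lower and 0.547% higher. Among the 5 were the membrane protease St14 (-0.55 ± 0.0748, limma adjusted p = 9.82e-05) and Cldn6 (-0.36 ± 0.0762, adjusted p = 0.00766), and Krt7 was lower on that day too. In the desmosome list Dsg2 was the gene called on that day (-0.33 ± 0.0808, adjusted p = 0.0212). In pulsed against control cells of day 5, Tjp3 of the junction list was called lower (-0.35 ± 0.0771, adjusted p = 0.0068), but no gene of the list was lower with the interquartile range as covariate or without the 4 arrays of widest spread.

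Transcription factors known to act in simple epithelia and trophoblast were called in both directions, with 5 of 20 higher and 3 lower on day 3 (19.6% and 14.3% of all clusters), 7 higher and 3 lower on day 5 (23.8% and 18.8%) and a median of 0.08. Gata3, a trophoblast and luminal epithelial factor, rose by 1.42 ± 0.115, Ets2 by 0.82 ± 0.111 and Gata2 by 0.80 ± 0.0913, while Klf5 fell (-0.84 ± 0.0778). In pulsed against control cells of day 5, Gata3 was called lower (-0.43, limma adjusted p = 0.0191), but no gene of the list was lower with the interquartile range as covariate or without the 4 arrays of widest spread. Of 17 other intermediate filament genes, 4 were higher and 7 lower on day 5, against the same 23.8% and 18.8% of all clusters, so the share higher was near the background. The neuronal filament genes Ina (-2.44 ± 0.129), Nefl (-1.53 ± 0.126) and Nefh (-1.17 ± 0.082) fell, and the muscle filament gene Des rose by 1.20 ± 0.118.

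**Figure D5:**
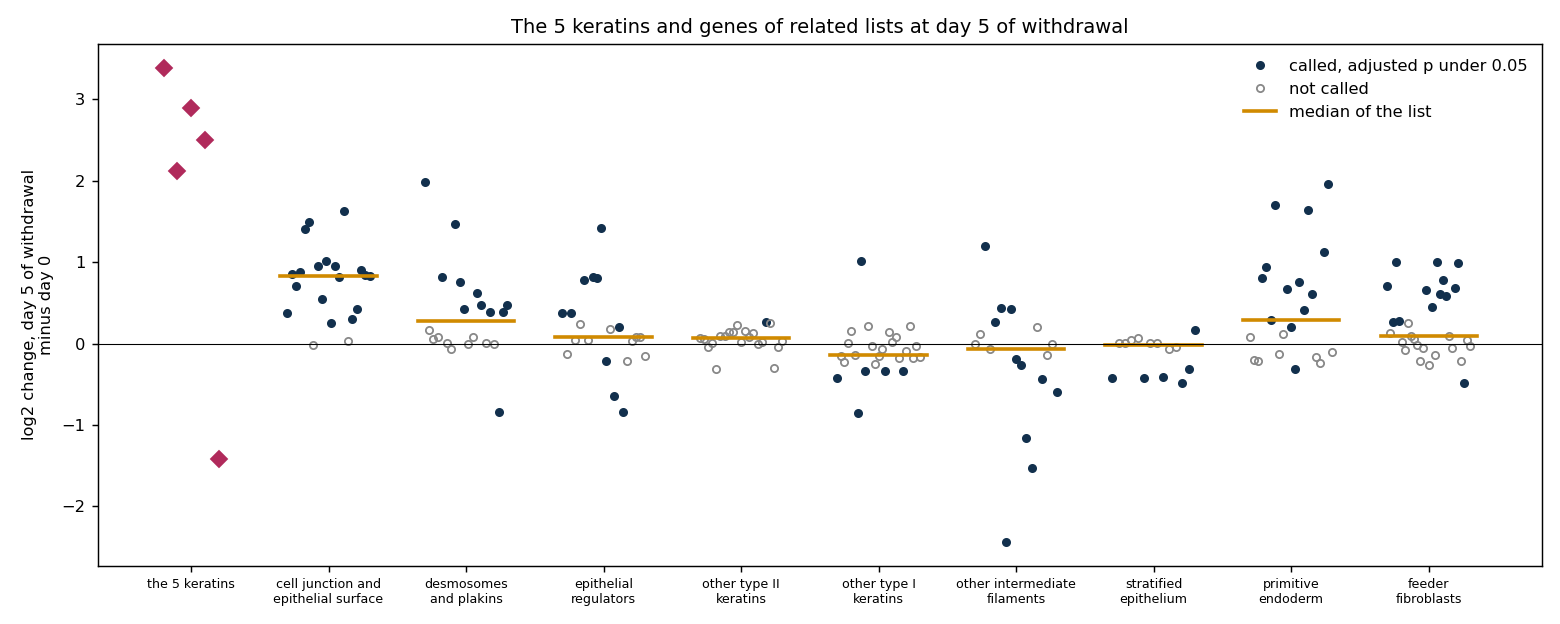
Change in log2 signal on day 5 of withdrawal against day 0 for the 5 keratins (diamonds, all called) and for the genes of 9 lists, with filled points for genes called at adjusted p under 0.05, open points for the others and a line at each list's median. The junction list has the highest median of the 9 at 0.84, and Krt7, Krt8, Krt18 and Krt19 lie between 2.11 and 3.39.

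The plot of gene lists on day 5 sets these beside markers of other cells that the cultures could hold. Of all clusters, 23.8% were called higher and 18.8% lower on that day. Of 14 stratified epithelium genes, 1 was higher and 5 were lower, with a median of -0.02, and the 4 that fell most were Tgm1 (-0.48), Cdh3 (-0.43), Krt10 (-0.42) and Lor (-0.41). The mean log2 signal of that list was 6.98 to 7.10 on the day 5 withdrawal arrays, against 7.15 to 7.22 on day 0.

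Of 29 fibroblast markers, which the feeder cells express, 12 were higher and 1 was lower on day 5, with a median of 0.10. The same 23.8% of clusters higher and 18.8% lower are the background of each day 5 withdrawal count in this paragraph. Mmp2 and Col1a2 were each higher by 1.00 and Thbs1 by 0.99. The list's mean signal was 7.53 to 7.64 on day 5 of withdrawal, against 7.32 to 7.38 on day 0, and 7.50 to 7.59 in pulsed cells of day 5, against 7.38 to 7.50 in controls, a comparison in which 3 of the list were called higher and 1 lower (5.13% and 7.1% of all clusters), and 0 either way with the interquartile range as covariate or without the 4 arrays of widest spread. Of 21 primitive endoderm markers, a lineage that also expresses Krt8, Krt18 and Krt19, 12 were higher and 1 was lower, with a median of 0.29. Srgn rose by 1.96, Dab2 by 1.70 and Lrp2 by 1.64, and the list's mean was 8.15 to 8.19 on day 5, against 7.67 to 7.71 on day 0. Of 18 pluripotency genes none was higher (1 at the unadjusted p under 0.05) and 15 were lower on day 5, with a median of -0.78. That list includes Nanog, which doxycycline controls in these cells, and Klf5, which is also in the regulator list. These lists moved over the same days as the keratins, and their part in the keratin changes was not tested.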

How the data were processed

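Per the submitters' processing notes, the authors ran RMA in Affymetrix Expression Console to make the deposited log2 signals. RMA corrects the background, gives the arrays equal distributions of probe signals and then summarises the probes of a cluster. The deposited cluster values still differed in spread between arrays, as given above. Software versions and the genome build of the array annotation are not given in the sources used here. Arrays have no read depth, and 3 arrays a group limit the precision. Clusters were named through GEO's platform annotation, which gives 1 symbol to 21780 of them, several to 1605 and none to 5430.

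The 23385 named clusters were fitted in limma 3.58.1 (R 4.3.3), with 1 mean for each of the 10 groups, no covariate and Benjamini-Hochberg adjustment. The code was tested on simulated data. None of the 30 replicate pairs was identical (r of 0.9903 to 0.9978). No block for replicate number was used in the main fit. Deviations of same-numbered arrays showed no pairing over all groups, which cannot exclude a weak one or one within a day. Within-array differences were compared by an exact permutation test over 20 assignments. The alternatives were other normalizations, filters, variance settings, covariates and arrays left out. Figures were drawn with matplotlib 3.10.9.

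The members, the gene lists (desmosome, junction, hemidesmosome, regulator, other keratin, other filament, stratified, fibroblast, primitive endoderm and pluripotency genes) and the tests were chosen with earlier results of these data known. Named genes are the members and, for each, the 4 clusters without a keratin symbol most alike to it. In each list they are the genes called with the largest day 5 change or pulse change.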

Additional observations from a re-analysis of the deposited data

Results flagged for a closer look

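The response of Krt7 to the 12 h of doxycycline differed between days by a test of the difference itself. Its pulsed minus control value was higher on day 5 than on day 1 by 0.64 and than on day 3 by 0.37, and it was -0.55 on day 1, -0.28 on day 3 and 0.09 on day 5. The comparison of days 5 and 1 kept its call under every setting run except the fit of the compared groups alone and the 2-fold minimum. For Krt8 the pulsed minus control value was higher on day 5 than on day 3 by 0.57, and it was -0.00 on day 1, -0.16 on day 3 and 0.41 on day 5. The calls of day 5 against day 3 were lost on leaving out any 1 of 19 arrays for Krt7 and any 1 of 7 for Krt8, and both were lost without the 4 arrays of widest spread.

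The 12 h without doxycycline also differed by day. The control minus withdrawal value of Krt7 was lower on day 3 than on day 1 (-0.37) and on day 5 than on day 1 (-0.41), being 0.63, 0.26 and 0.22 on days 1, 3 and 5. That of Krt18 was lower on day 5 than on day 1 (-0.36), being 0.60, 0.51 and 0.24 on the 3 days. Leaving out any 1 of 9 arrays lost this call, and any 1 of 4 lost that of Krt7 on day 3 against day 1. That of Krt42 was higher on day 3 than on day 1 by 0.73, being -0.58 on day 1, 0.15 on day 3 and -0.26 on day 5. Groups of 3 arrays were not searched for single outlying arrays. These comparisons share arrays, so they are not separate findings. Both Krt7 control step differences use the same day 1 arrays. The control arrays enter the pulse differences and the control step differences with opposite signs, and they hold the 4 arrays of widest spread.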

How the results depend on the processing

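The 50 member results for days 3 and 5 against day 0, in withdrawal and pulsed cells, and for the steps between days in all arms were called in the same direction under all 41 settings that keep the threshold on the adjusted p alone (highest 0.0206). Of these 50, 9 were under 2-fold, 6 of them of Krt42, and so drop out where a 2-fold change is asked as well. No result changed direction past the threshold. Over 1 array left out at a time, 3930 member results kept their side of the threshold, 110 lost their call and 10 gained one. Over the other settings these numbers were 1261, 45 and 44. The counts below are of the 5 members, and for each change the cause was not tested. The lists, the added control step comparisons and the setting without the 4 arrays of widest spread were chosen after seeing the data.

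With a change of at least 2-fold asked as well, no member was higher in day 1 withdrawal, day 1 pulse against day 0, any pulse against control, any control or pulsed group against withdrawal, or any difference between days (0 each), and the control arm from day 3 to day 5 had 2 higher. None was lower (0 each) in day 3 withdrawal or day 3 pulse against day 0, withdrawal from day 3 to day 5, both steps of the pulsed arm, the first step of the control arm, the day 1 pulse against control, the day 1 control or pulse against withdrawal, or the control step differences from day 1.

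Array weights gave 1 higher and 2 lower for the day 1 pulse against control, 2 lower for the day 3 pulse, 2 higher for the day 5 pulse, 1 higher and 1 lower for the pulse effect of day 3 against day 1, and 3 higher for day 5 against day 1. They also gave 1 lower for the day 5 control step, 2 higher for day 1 pulse against withdrawal and 5 higher against day 0, and for differences of the control step 2 higher (day 3 against 1), 1 lower (5 against 3) and 1 higher with 1 lower (5 against 1). Quantile normalization gave 1 higher for the day 1 pulse, 2 for the day 5 pulse, 2 for its change from day 1 to 5, 2 for day 1 pulse against withdrawal, 5 against day 0 and 1 for the control step of day 5 against 1. Centring gave 1 higher for day 1 withdrawal, 0 for the pulse effect of day 5 against 3, 1 for day 1 pulse against day 0, and 0 and 1 lower for the control step differences of days 3 and 5 from day 1.

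The compared groups alone gave, as numbers higher, 1 for day 1 withdrawal, 0 for the day 5 pulse, 0 for both day 5 pulse effect differences, 2 for the day 3 and 0 for the day 5 control step, 0 for day 1 pulse against withdrawal and 1 against day 0. They gave 0 lower for the day 1 control step, the day 1 pulse against withdrawal and the control step differences from day 1, with fewer arrays in each fit. The interquartile range as covariate gave 2 higher for the pulse effect of day 5 against 1 and 5 for day 1 pulse against day 0. Trended robust variances gave 2 lower for the day 1 pulse, 2 higher for day 1 pulse against withdrawal and 2 higher for the control step of day 3 against 1. Leaving out the dimmest 40% gave 2 lower for the day 1 and 1 lower for the day 3 pulse, and adding clusters with no symbol gave 0 lower for day 1 pulse against withdrawal. Without the 4 widest arrays there were 1 higher for the day 1 pulse, 0 for the day 5 pulse, 0 for the pulse effect of day 5 against 3, 0 for the day 5 control step, 2 higher for the control step of day 3 against 1 and 1 lower for day 5 against 1.

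The replicate block gave 1 member higher for the pulse effect of day 5 against 3 and 0 lower for day 1 pulse against withdrawal. Same-numbered arrays of different groups deviated with a median correlation of -0.00585 over 135 pairs (lowest -0.716), against 0.00424 over 270 pairs of different numbers. Same-numbered pulsed and control arrays of 1 day ran from -0.716 to 0.245. The medians show no pairing by number over all groups, and cannot exclude a weak one or one within a day. Leaving out 1 array gave 1 to 2 members higher in day 1 withdrawal, 0 to 1 higher and 1 to 2 lower for the day 1 pulse, 0 to 1 higher for the day 5 pulse, 0 to 3 for the pulse effect of day 5 against 3, 1 to 3 for the day 5 control step, 0 to 1 higher and 0 to 1 lower for day 1 pulse against withdrawal and 1 to 4 against day 0. For the control step it gave 0 to 1 lower (day 3 against 1), and 0 to 1 higher and 1 to 2 lower (day 5 against 1).

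Over all settings the number of clusters called lay between 8540 and 12250 for day 5 withdrawal (9945 as reported), 74 and 4573 for the day 1 pulse (877), 1 and 1865 for the day 3 pulse (9) and 0 and 11154 for the day 5 pulse (2860). A second cluster for a member was not tried, since each has 1. Signal over background is not known without detection calls.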
